A study of Mus musculus with 14 samples.

Results

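Ifna7 is one of the mouse genes for interferon alpha, a secreted type I interferon. It is described here through the single probe that the platform annotation assigns to it, 1 gene of 8841 with a named probe on an array of 10012 probes. No other probe carried a symbol of the interferon alpha or beta genes, so Ifna7 stood alone for the family. The RefSeq gene table (GRCm38.p6) lists 15 protein-coding interferon alpha and beta genes, all on chromosome 4, where Ifna7 lies between Gm13288 and Ifna11. The probe's sequence was not used here, so whether transcripts of the related genes also bind it was not tested.

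The RNA came from macrophages that thioglycollate, an irritant, had drawn into the peritoneum of female C57BL/6 mice aged 6 weeks. There were 7 groups of 2 arrays: GW3965 with poly(I:C), GW7845 with poly(I:C), poly(I:C) alone, GW3965 with LPS, GW7845 with LPS, LPS alone, and untreated cells. Poly(I:C) is a synthetic double-stranded RNA, LPS is a bacterial outer-membrane lipid, GW3965 activates the liver X receptors (LXRs) and GW7845 activates PPARγ. The series asks how these nuclear receptors repress responses of Toll-like receptors (TLRs), and its text states 2 biological replicates for each condition. Every agonist group also received a stimulus. The sources used here give no doses or durations.

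Type I interferons are released by infected or stimulated cells and act on neighbouring cells through the receptor IFNAR1 and IFNAR2. The receptor signals to the nucleus and switches on genes that limit viral growth. In macrophages TLR3 senses double-stranded RNA and TLR4 senses LPS, and both can reach the transcription factor IRF3 through the adaptor TRIF. Interferon beta is generally made early, and many interferon alpha genes are induced later, once IRF7 has accumulated.

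Values are intensities on a linear scale. As deposited, each array has a median of 1, so 0 on the log2 scale is the median probe of the array. By their missing values the arrays fell into 2 sets of 7, called set A and set B, with 1 array of every group in each. The labels do not name these sets. Whether a set is a preparation or a scan batch is not known, and set and replicate cannot be told apart within a group. The sets differed in which probes were missing and in the 10th percentile of intensity, which was 0.137 to 0.271 in set A and 0.0549 to 0.0833 in set B. The macrophage marker list held 10 symbols, among them older names of Adgre1 and Lyz2. Of these symbols 6 were on the array and none was at 0: Lyz2 measured 998 to 1939, Msr1 58.8 to 164, Cd14 50.5 to 837, Itgam 7.26 to 15.6 and Mrc1 3.36 to 13.7. Adgre1 (F4/80) was low, at 0.875 to 8.73. Tests are from limma over all 9584 probes that passed a filter on low values, with Benjamini-Hochberg adjustment, and a probe is called where the adjusted p is under 0.05.

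Ifna7 signal was high on every array of cells given poly(I:C) and below the array median on every other array. With GW3965 and poly(I:C), Ifna7 measured 9.32 in set A and 6.57 in set B. With GW7845 and poly(I:C) it measured 11.3 and 9.64, and with poly(I:C) alone 25.4 and 10.7. These 6 values lay between percentiles 77.5 and 88.5 of their arrays.

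The 8 arrays without poly(I:C) gave Ifna7 intensities under 1. With GW3965 and LPS they were 0.807 in set A and 0.455 in set B, and with GW7845 and LPS 0.899 in set A and 0.780 in set B. LPS alone gave 0.508 and 0.612, and untreated cells gave 0.750 and 0.582. These 8 values lay between percentiles 38.0 and 48.3 of their arrays. The lowest array with poly(I:C) was 7.31-fold above the highest array without it, and the groups did not overlap.

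**Figure D1:**
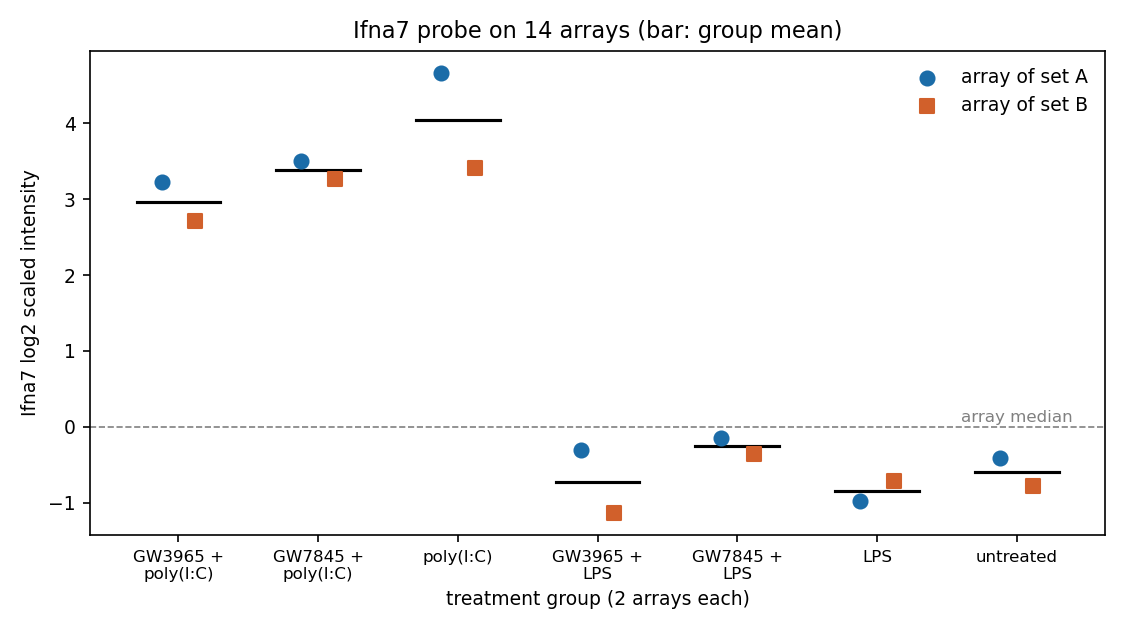
Log2 of the scaled Ifna7 intensity on each of the 14 arrays (0, dashed line, is the array median), by group, with set A and set B marked and a bar at each group's mean. The 6 arrays with poly(I:C) sit between 2.72 and 4.67, and the 8 others between -1.14 and -0.15.

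As group means on the log2 scale (SD, n = 2 each), the order from high to low began with poly(I:C) alone at 4.04 ± 0.89. GW7845 with poly(I:C) followed at 3.39 ± 0.16 and GW3965 with poly(I:C) at 2.97 ± 0.36. GW7845 with LPS was at -0.26 ± 0.14, untreated cells at -0.60 ± 0.26, GW3965 with LPS at -0.72 ± 0.58 and LPS alone at -0.84 ± 0.19. Within the upper 3 groups, the arrays of poly(I:C) alone and of GW7845 with poly(I:C) overlapped. Among the lower 4 groups, the values of GW3965 with LPS spanned those of LPS alone and of untreated cells. The arrays of GW7845 with LPS lay just above both untreated arrays.

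The gene was chosen by its difference between poly(I:C) and LPS on the arrays without an agonist, with the rest of its pattern known. That difference was 4.88 on the log2 scale and is given without a test. The next highest differences among named genes were Ifi204, an interferon-inducible gene, at 2.48, and Ttc3 at 2.42. Of all tested probes 0.0104% were called in that comparison, from which nothing is read about Ifna7. Ifna7 after poly(I:C) alone was 4.64 above untreated cells, and after LPS alone it was at -0.24 relative to them.

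The arrays with an agonist did not enter that difference and allow a test of the same stimulus contrast. Their values were known when the gene was chosen, so the tests on them are not independent of the choice. Averaged over both agonists, Ifna7 was 3.67 higher with poly(I:C) than with LPS on the log2 scale (SE 0.31, 95% interval 2.99 to 4.34, limma adjusted p = 0.000157). The LPS values lay under the array median and no detection calls were used, so the size is approximate. On the scale of log2 of the intensity plus 1 it was 2.54. In this comparison 0.104% of the tested probes were called, and Ifna7 ranked first among all of them both by size and by p. The difference was 3.59 within set A and 3.74 within set B. An exact permutation test over the 4 arrays with poly(I:C) and the 4 with LPS gave a two-sided p of 0.0286, the smallest that 70 splits allow. These arrays were already known not to overlap, so this p was fixed in advance and adds no support. The splits also took no account of agonist or array set.

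Under GW3965 the difference was 3.69 (SE 0.44, 95% interval 2.74 to 4.65, limma adjusted p = 0.0096), where 0.0209% of probes were called. Under GW7845 it was 3.64 (SE 0.44, 95% interval 2.69 to 4.59, limma adjusted p = 0.011), where Ifna7 alone was called (0.0104%). These calls for a single agonist rested on few arrays. The call under GW3965 was lost without GW3965 + LPS 2 (3.28, adjusted p = 0.085), GW3965 + poly(I:C) 1 (3.44, 0.40) or GW3965 + poly(I:C) 2 (3.94, 0.10). The call under GW7845 was lost without GW7845 + LPS 1 (3.54, adjusted p = 0.35), GW7845 + LPS 2 (3.74, 0.10) or GW7845 + poly(I:C) 1 (3.52, 0.19).

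The size of the stimulus difference was not shown to depend on the agonist. Under GW7845 minus under GW3965 it differed by -0.05 (95% interval -1.40 to 1.30, limma adjusted p = 1.0). No probe was called for this interaction in limma (0%), with or without the array sets as a block, and 78 probes had an unadjusted p under 0.05. The interval still holds differences of more than 2-fold in either direction.

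**Figure D2:**
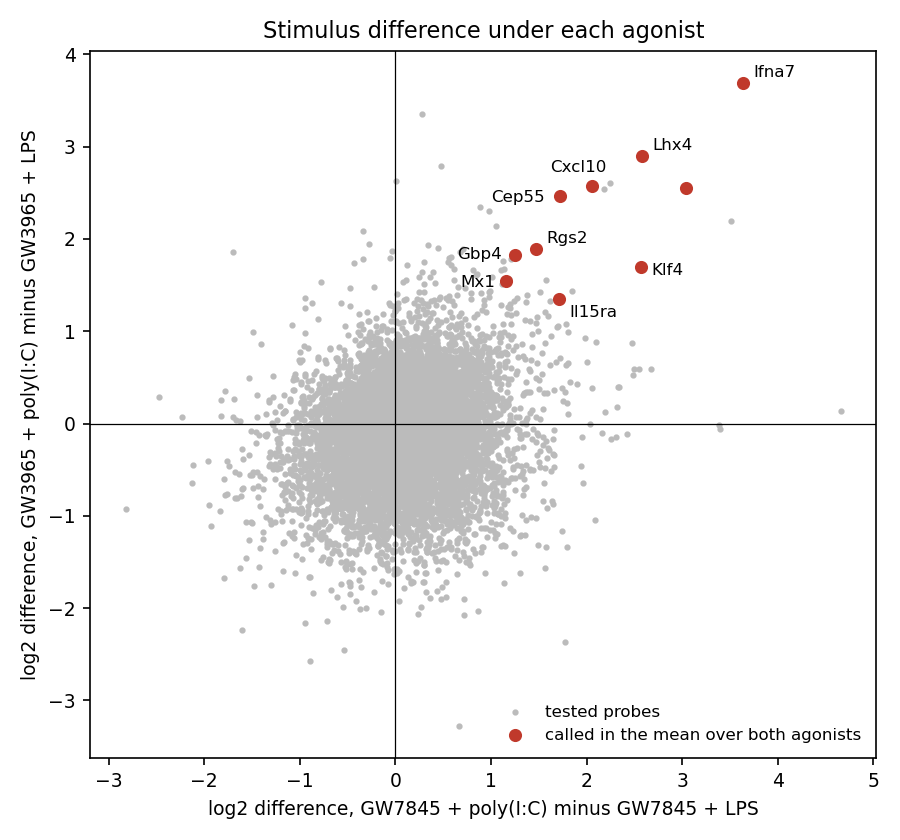
Log2 difference between poly(I:C) and LPS for each tested probe, under GW7845 (horizontal) and under GW3965 (vertical), with the 10 probes called in the mean of both in red and the 9 named ones labelled. Ifna7 lies farthest out along the diagonal, at 3.64 and 3.69.

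The gap between the 4 agonist arrays with poly(I:C) and the 4 with LPS was also wider for Ifna7 than for any other probe. Of 9505 probes with a value on all 8 arrays, 2.76% had all 4 poly(I:C) values above all 4 LPS values, and 6 (0.0631%) had a gap of at least 2-fold. Ifna7 came first at 7.31-fold. Cited2, a transcriptional coregulator named after its values were seen, was next at 4.03-fold. Klf4 at 2.76-fold, Lhx4 at 2.53-fold, Cxcl10 at 2.04-fold and a probe without a symbol made up the rest.

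Against untreated cells, Ifna7 rose with poly(I:C) in the presence of either agonist. With GW3965 and poly(I:C) it was 3.57 higher (SE 0.44, limma adjusted p = 0.000142) in a comparison that called 6.63% of probes. With GW7845 and poly(I:C) it was 3.98 higher (SE 0.44, limma adjusted p = 4.4e-05), where 7.54% of probes were called. The neighbouring LPS comparisons gave no call for Ifna7. GW3965 with LPS was at -0.12 relative to untreated cells (95% interval -1.08 to 0.83, limma adjusted p = 0.92), where 6.06% of probes were called. GW7845 with LPS was at 0.34 (95% interval -0.61 to 1.30, limma adjusted p = 0.83), where 6.55% were called. The upper end of each of these intervals lay below the lower end of the interval of the matching poly(I:C) group, 2.61 for GW3965 and 3.03 for GW7845.

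The 2 agonists were compared at the treatments as given. GW7845 with poly(I:C) was 0.42 above GW3965 with poly(I:C) (95% interval -0.54 to 1.37, limma adjusted p = 1.0), a comparison with 0.0417% of probes called. GW7845 with LPS was 0.47 above GW3965 with LPS (95% interval -0.49 to 1.42, limma adjusted p = 1.0), with 0.0104% called. In both sets and under both stimuli the GW7845 array was the higher one, and neither difference passed the test.

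Relative to the stimulus alone, differences are a description, because those arrays chose the gene. Ifna7 with GW3965 and poly(I:C) was at -1.07 relative to poly(I:C) alone, -1.45 in set A and -0.70 in set B. With GW7845 and poly(I:C) it was at -0.66, with -1.17 in set A and -0.15 in set B. In each set poly(I:C) alone was thus the highest of the 3 arrays with poly(I:C). Under LPS, Ifna7 with GW3965 was at 0.12 relative to LPS alone, with opposite signs in the sets (0.67 and -0.43), and with GW7845 at 0.59.

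Beside Ifna7, 9 other probes were called in the mean stimulus difference over both agonists, 8 of them with a gene symbol, and all were higher with poly(I:C). Without an agonist the difference was smaller for each of these 8 genes, from 0.46 for Il15ra to 1.30 for Lhx4. None of the 8 was called there, where 0.0104% of all tested probes were called. These genes were picked by their call on the agonist arrays, which by itself favours larger differences on those arrays. The comparison without an agonist also rests on fewer arrays. Whether an agonist changes the difference of these genes was not tested. Cxcl10 encodes a chemokine that draws activated T cells. It measured 357 and 312 with GW3965 and poly(I:C), and 584 and 560 with GW7845 and poly(I:C). With GW3965 and LPS it measured 54.5 and 57.8, and with GW7845 and LPS 124 and 153. The 4 poly(I:C) arrays lay above the 4 LPS arrays, as for 2.76% of probes with a value on these arrays. The mean difference was 2.31 on the log2 scale (SE 0.38, limma adjusted p = 0.040).

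Cxcl10 differed from Ifna7 in what LPS did to it. Against untreated cells, where it measured 0.422 and 0.136, Cxcl10 rose by 7.87 with GW3965 and LPS (limma adjusted p = 6.3e-07) and by 9.17 with GW7845 and LPS (limma adjusted p = 1.6e-07). Poly(I:C) alone gave 979 and 489, and LPS alone 543 and 226. Ifna7 by contrast lay below the array median on all of the LPS arrays.

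Mx1, an antiviral GTPase, measured 92.6, 64.9, 85.8 and 82.8 on the agonist arrays with poly(I:C) against 27.5, 25.5, 32.4 and 44.0 on those with LPS. The difference was 1.35 (SE 0.23, limma adjusted p = 0.048). Gbp4, an interferon-induced guanylate-binding protein gene, was 1.54 higher (SE 0.26, limma adjusted p = 0.040). Il15ra, a chain of the interleukin-15 receptor, was 1.53 higher (SE 0.26, limma adjusted p = 0.048), and its values in the groups overlapped slightly, the lowest with poly(I:C) being 6.29 and the highest with LPS 6.50. All 3 genes also rose against untreated cells with either agonist and LPS.

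The other 4 named genes encode regulators of transcription, cell division and signalling. Lhx4, a LIM-homeodomain transcription factor of pituitary development, was 2.74 higher with poly(I:C) than with LPS (SE 0.29, limma adjusted p = 0.0010), and Cep55, a midbody protein needed for cell division, 2.09 higher (SE 0.32, limma adjusted p = 0.021). Klf4, a zinc-finger transcription factor of macrophages and stem cells, measured 17.0, 13.6, 41.7 and 15.8 with agonist and poly(I:C), against 4.94, 4.45, 4.82 and 3.85 with agonist and LPS, and 15.6 and 11.4 in untreated cells. Poly(I:C) alone gave 32.4 and 24.3 and LPS alone 19.7 and 10.1, so the arrays below both untreated values were those with agonist and LPS and 1 array of LPS alone. Over both agonists the difference between the stimuli was 2.14 for Klf4 (SE 0.32, limma adjusted p = 0.021).

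Rgs2, a regulator of G-protein signalling, stood lower than in untreated cells under both stimuli. It measured 45.3, 41.4, 22.6 and 25.4 with agonist and poly(I:C), against 14.0, 9.69, 7.83 and 9.59 with agonist and LPS, while untreated cells gave 114 and 102. Its stimulus difference of 1.68 (SE 0.23, limma adjusted p = 0.012) was thus a smaller decrease with poly(I:C).

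Ifna7 and Lhx4 were called with any 1 of the 14 arrays left out. The other 7 named genes each lost the call in 4 or more of the 14 repeats, and Mx1 and Il15ra kept it in 1 only. The number of probes called in this comparison was 2 to 45 over those repeats. It was 45 without GW7845 + poly(I:C) 2 and 3 without GW7845 + poly(I:C) 1.

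A promoter sequence, 250 bases before to 50 bases after the start of the gene, was available in the RefSeq table (GRCm38.p6) for 6 of these 8 genes. The core of the interferon-stimulated response element, GAAANNGAAA, searched on both strands, was found in 3.44% of all 32851 promoters in the table. Of the 6 genes only Cxcl10 had a match. Mx1 and Gbp4 had no promoter entry and were not searched. Its promoter is shown because Cxcl10 is a well-known interferon-responsive gene and was called together with Ifna7. It lies at chr5:92348840-92349139 on the minus strand, and the match, in capitals, begins 213 bases before the start.

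Cxcl10 promoter: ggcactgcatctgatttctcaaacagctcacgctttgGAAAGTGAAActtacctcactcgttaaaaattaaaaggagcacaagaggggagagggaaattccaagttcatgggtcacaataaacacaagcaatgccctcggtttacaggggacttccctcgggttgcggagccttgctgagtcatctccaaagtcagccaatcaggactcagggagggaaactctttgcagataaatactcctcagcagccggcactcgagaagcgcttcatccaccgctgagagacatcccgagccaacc

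The wider pathway was described through 5 lists of genes, chosen with earlier results known. Among sensors and adaptors, 17 of 28 listed genes were tested. With poly(I:C) alone against untreated cells 10 of them rose and none fell. Of all tested probes 8.86% were called in that comparison, 6.08% higher and 2.78% lower. With LPS alone 9 of them rose and none fell, where 7.8% of all probes were called, 5.21% higher and 2.6% lower. Tlr3, the sensor of double-stranded RNA, rose by 3.62 with poly(I:C) and by 3.26 with LPS. Ifih1, the cytosolic RNA sensor MDA5, rose by 5.45 and 5.35. Tlr4, the LPS receptor, was at -0.40 and -0.49 and did not pass, and Tbk1, the kinase that phosphorylates IRF3, rose by 1.64 with poly(I:C) (limma adjusted p = 0.019) and was at 1.19 with LPS (limma adjusted p = 0.10). The Tbk1 call was lost without poly(I:C) 1 or untreated 2, with 1.11 and an adjusted p of 0.21 without poly(I:C) 1.

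Tlr3 passed the test between the stimuli with the array sets as a block and not without it. It measured 7.12, 6.48, 6.27 and 9.61 with agonist and poly(I:C), against 1.87, 1.78, 4.25 and 5.33 with agonist and LPS. The 4 poly(I:C) values were all higher, an order that 2.76% of probes with a value on these arrays had. The difference was 1.30 (SE 0.30, limma adjusted p = 0.21, and 0.024 with the array sets as a block).

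Of 13 tested transcription factors of the pathway, 4 rose under either stimulus alone and 1, Jun, fell by 3.11 with LPS. Of all tested probes 6.08% were called higher with poly(I:C) alone and 5.21% with LPS alone, where 2.6% were called lower. The Jun call was lost without LPS 1, untreated 1 or untreated 2 (-1.83 and an adjusted p of 0.20 without LPS 1). Irf7, the factor that induces most interferon alpha genes, measured 774 and 808 with poly(I:C) alone, 715 and 609 with LPS alone, and 55.4 and 41.9 in untreated cells. It rose by 4.04 with poly(I:C) and by 3.78 with LPS. Between poly(I:C) and LPS over both agonists Irf7 differed by 0.35 (95% interval -0.22 to 0.91, limma adjusted p = 1.0), against 3.67 for Ifna7. Irf3 was at -0.13 with poly(I:C) and 0.05 with LPS and did not pass, and Irf1 rose by 3.90 and 3.29.

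Of 10 tested genes of the receptor and its signalling, 4 rose under either stimulus alone. Of all tested probes 6.08% were called higher with poly(I:C) alone and 5.21% with LPS alone. Stat2 rose by 3.46 with poly(I:C) and 3.14 with LPS, Irf9 by 1.93 and 1.63, and Socs1, a feedback inhibitor of the receptor, by 6.96 and 5.91. The Irf9 call for LPS was fragile, with 1.22 to 2.04 and an adjusted p of up to 0.33 with 1 array left out. It was lost without LPS 2, untreated 1, or either array of GW3965 with poly(I:C), GW3965 with LPS or GW7845 with LPS. The Irf9 call for poly(I:C) was lost without poly(I:C) 2 or untreated 1 (adjusted p up to 0.14). The receptor chains did not pass: Ifnar1 was at 0.57 and 0.27, and Ifnar2 at 1.51 and 1.84. None of the 10 was called between poly(I:C) and LPS over both agonists, where 0.104% of all tested probes were called. With the array sets as a block 1 of them, Socs1, was called higher with poly(I:C) (limma adjusted p = 0.046).

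Interferon-stimulated genes rose with both stimuli, with 26 of 28 tested members called higher for poly(I:C) alone and 26 for LPS alone. Of all tested probes 6.08% and 5.21% were called higher in these comparisons. The median change of the list was 5.33 with poly(I:C) and 5.45 with LPS, beside 0.10 and 0.06 for all probes. Sizes of members whose untreated level was under the array median are approximate. Ifit1, which binds viral RNA, rose by 7.91 and 7.21, and Isg15, a ubiquitin-like modifier, by 4.15 and 3.19 (2.16 and 1.42 as log2 of the intensity plus 1). Between poly(I:C) and LPS over both agonists the median was 0.71, beside 0.01 for all probes, and 26 of 28 members were above 0. The members called in that comparison were Mx1 and Cxcl10, where 0.104% of all tested probes were called. The number of calls in this list was 0 to 3 with 1 array left out and 7 with the array sets as a block. Without an agonist the median between poly(I:C) and LPS was smaller, at 0.22 beside 0.05 for all probes. There 23 of 28 members were above 0 and 0 were called.

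The list of other interferons and their receptors had 3 tested genes: Ifng, which is interferon gamma, and the receptor chains Ifngr1 and Il10rb. Ifng was thus the only interferon among them. It was also the only one called without a block, higher with either stimulus alone. Of all tested probes 6.08% were called higher with poly(I:C) alone and 5.21% with LPS alone. With the array sets as a block Ifngr1 was also called, lower with either stimulus. Its limma adjusted p was then 0.029 for poly(I:C) alone and 0.047 for LPS alone. Ifng remained at low intensity. It measured 2.40 and 0.985 for poly(I:C) alone, 1.54 and 1.38 for LPS alone, and 0.0788 and 0.0995 in untreated cells. The untreated values of Ifng lay close to the floor of 0.0686, so the size of its increase was not resolved: it was 4.12 and 4.04 on the log2 scale, and 1.25 and 1.17 as log2 of the intensity plus 1.

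**Figure D3:**
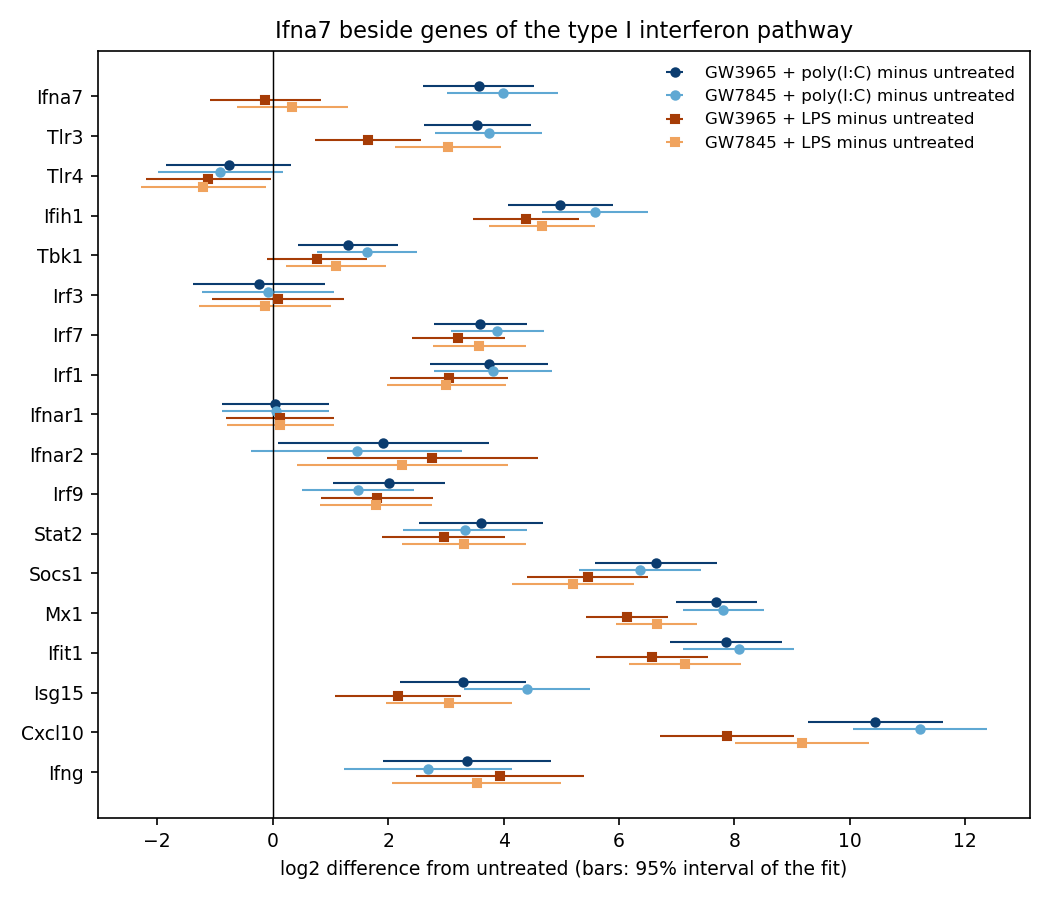
Log2 difference from untreated cells of Ifna7 and genes of the interferon pathway in the 4 groups with an agonist, with bars for the 95% interval of the fit. Ifna7 is at 3.57 and 3.98 with poly(I:C) and at -0.12 and 0.34 with LPS, whereas Irf7, Ifit1, Mx1 and Cxcl10 are well above 0 in all 4 groups.

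Plasmacytoid dendritic cells are strong producers of interferon alpha, and 4 of 10 listed markers of that cell type were on the array: Tcf4, Ly6d, Cox6a2 and Bcl11a. Their summed intensity was 28.3 to 49.2 with agonist and poly(I:C), against 19.9 to 23.4 with agonist and LPS. It was 34.2 to 61.8 with poly(I:C) alone, 30.4 to 44.0 with LPS alone, and 11.7 to 16.5 in untreated cells. The sum was carried by Tcf4, at 17.6 to 43.3 with agonist and poly(I:C) against 7.60 to 14.7 with agonist and LPS, a difference of 1.13 (limma adjusted p = 0.50, and 0.081 with the array sets as a block). No marker of the 4 was called, where 0.104% of all tested probes were, and none was at 0. Of the 4 differences 2 were above 0, and the part of such cells in the Ifna7 values was not tested.

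The marker lists of macrophages, B cells, T and NK cells, neutrophils, mast cells with eosinophils, and mesothelial cells with fibroblasts had no called member in that comparison either. At a share of 0.104% of all tested probes, lists of this length would rarely hold a call. Of 7 B cell markers 1 was above 0, and Cd79b was at -1.33 (limma adjusted p = 0.34, and 0.013 with the array sets as a block). In such bulk RNA fewer producing cells and less RNA per cell cannot be told apart.

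The genes most like Ifna7 were found by Pearson's correlation of log2 intensity over the 14 arrays, among 8599 probes with 1 symbol, of which 0.186% exceeded 0.8. The first 10 were Itprid2 and Vrk2 (0.90 each), Tex29 and Rnd3 (0.88), Mxd1 and Siah1a (0.84), Oser1 and Sfn (0.83), and Adck1 and Xrn2 (0.82). These values describe arrays that share stimuli and array sets. Vrk2, a serine/threonine kinase gene, measured 11.8 to 17.9 on the 6 arrays with poly(I:C) against 7.52 to 10.3 on the others. Mxd1, a partner of MAX that opposes MYC, measured 1.47 to 2.52 against 0.170 to 1.12.

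In 7 of these 10 genes the arrays with and without poly(I:C) overlapped, for example Sfn, at 15.2 to 30.4 against 8.76 to 17.1. Itprid2, Vrk2 and Mxd1 did not overlap: all their arrays with poly(I:C) lay above all others. Of probes with a value on every array, 0.358% had that order. The 10 genes were picked by their correlation with Ifna7, which has that order itself. The selection favours such genes, so their lack of overlap is a description. All 10 genes had a narrower range than Ifna7. Their log2 span was 1.00 to 3.89, against 5.80 for Ifna7. None was called between poly(I:C) and LPS over both agonists, where 0.104% of all tested probes were called. The choice also depended on the measure, since 4 of the 10 were among the first 10 with the array sets centred, 2 by Spearman's correlation and 1 over the 7 group means.

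**Figure D4:**
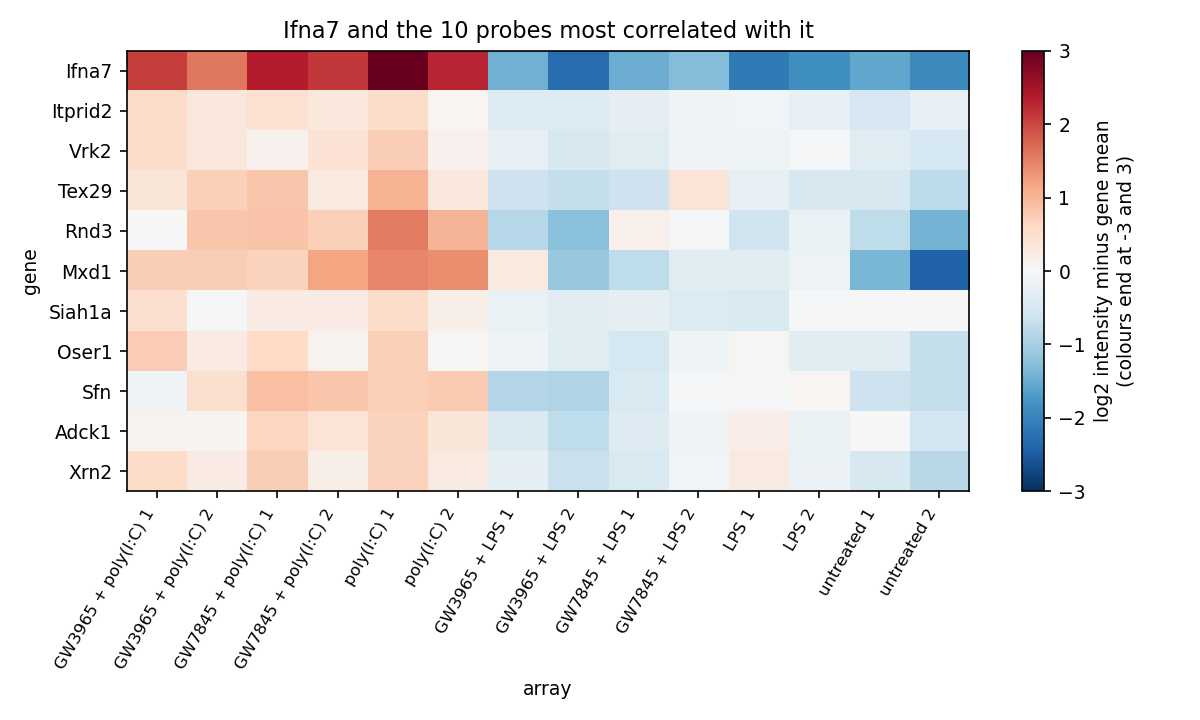
Log2 intensity minus the gene's mean, as colour, for Ifna7 and the 10 genes most like it (rows) on the 14 arrays (columns, by group). Colours end at -3 and 3. The other genes are mostly higher on arrays with poly(I:C), with overlap in 7 of 10, over a smaller span than the 5.80 of Ifna7.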

How the data were processed

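The files hold 1 linear intensity per probe for each of 14 one-colour arrays, deposited by the authors with a median of 1 on each array. The sources used here name no scanner, background method or scaling. Arrays were grouped by title. Per the labels' protocols, total RNA was copied to cDNA and transcribed with biotinylated UTP.

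Deposited intensities below the 5th percentile of positive values (0.0686) were set to it before log2. At least 2 arrays above their own 20th percentile kept 9584 of 10012 probes. Group means over 14 arrays were fitted in limma 3.58.1 under R 4.3.3, with an intensity trend, 7 residual degrees of freedom and Benjamini-Hochberg adjustment. The test was tried on simulated data. Each p measures the spread between preparations together with the difference between array sets.

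Genes with 1 platform symbol are named: Ifna genes, list members, called probes and the 10 most like Ifna7. Ifna7 and the lists were chosen with earlier results of these data known. Alternatives changed the floor, filter, scaling, trend, block and arrays. Without detection calls, background was judged from intensity.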

Additional observations from a re-analysis of the deposited data

Results flagged for a closer look

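The mean difference of Ifna7 between GW7845 and no agonist had opposite signs under the stimuli. Relative to poly(I:C) alone, GW7845 with poly(I:C) was at -0.66 on the log2 scale, with -1.17 in set A and -0.15 in set B. Relative to LPS alone, GW7845 with LPS was at 0.59, with 0.82 in set A and 0.35 in set B. The 95% intervals of the fit were -1.61 to 0.30 under poly(I:C) and -0.37 to 1.54 under LPS. They use the arrays that chose the gene, so they are a description and not a test. All values under LPS lay below the array median. The sign was the same in both sets of each comparison, and the difference between the stimuli was not tested, because the arrays of poly(I:C) alone and LPS alone chose the gene.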

How the results depend on the processing

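The stimulus difference of Ifna7 over both agonists kept its direction and its call in every alternative run, at 2.54 as log2 of the intensity plus 1 and from 3.46 to 3.87 with 1 array left out. Without the intensity trend, Ifna7 lost its call under GW3965 alone (3.69, limma adjusted p = 0.11) and under GW7845 alone (3.64, limma adjusted p = 0.13). With 1 array left out these values were 3.28 to 4.10 and 3.52 to 3.76. The number of probes called over both agonists was 74 with the array sets as a block, 30 with the replicate number as a block, 2 without the trend, and 2 to 45 with 1 array left out. For LPS against untreated cells it was 1702 with the array sets as a block (467 to 819 with 1 array left out), and for poly(I:C) against untreated cells 1790 (540 to 924). Between poly(I:C) and LPS it was 2 with either block and 1 to 2 with 1 array left out. The cause was not tested. Same-numbered arrays correlated at 0.35 to 0.67 in their deviations over the 15 pairs of the other 6 groups, and at -0.54 to -0.39 over the 6 pairs with GW7845 with LPS, whose numbers lay the other way round across the array sets. The numbers were therefore not taken as a pairing of all groups. No result changed sign among the called ones. With 2 arrays a group, small differences of Ifna7 near the array median were not detectable.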

Other observations

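Ifna7 was not the only probe with all 6 arrays given poly(I:C) above all 8 others. Of 9486 probes with a value on all 14 arrays, 34 (0.358%) had that order, 28 of them with 1 symbol. The gap of the next, Mxd1, was 1.31-fold, against 7.31-fold for Ifna7. These probes were chosen by this order, so it is a description.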
